A study of Homo sapiens with 6 samples.

Results

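The genes described here are 10 transcription factors, HAND2, GATA4, GATA6, LHX2, TCF21, TWIST1, TWIST2, SNAI2, ZEB1 and ZEB2. They were chosen by symbol as factors of stellate cell lineage and of mesenchymal transition, and they make up 10 of the 24789 rows with values in the deposited table. RNA was sequenced from LX-2, an established cell line derived from human hepatic stellate cells, the vitamin A storing cells of the liver that turn into scar-forming myofibroblasts after injury. In 3 libraries the cells had received scrambled siRNA (genotype label WT), and in the other 3 an siRNA against AEBP1 (genotype label AEBP1 knockdown). Both siRNAs were transfected at 50 nM, and the cells were harvested 48 hours later. All 6 libraries come from this single line. The labels do not say if each library had its own transfection, so a p-value here measures the spread between libraries, which may be technical.

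HAND2, TCF21, TWIST1 and TWIST2 are basic helix-loop-helix proteins, which pair with a partner of the E protein group (TCF3, TCF4, TCF12) and bind short DNA motifs called E-boxes. GATA4 and GATA6 are zinc finger factors of heart, gut and liver mesenchyme, and GATA4 is known to restrain stellate cell activation in the mouse liver. LHX2, a LIM homeodomain factor, is likewise known from mice as a brake on stellate cell activation and liver fibrosis. SNAI2, ZEB1 and ZEB2 are zinc finger repressors that bind E-boxes of the form CAGGTG in epithelial genes such as that of E-cadherin, and they are, with the TWIST proteins, the classical drivers of the epithelial to mesenchymal transition.

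Promoter windows from RefSeq (GRCh38.p14, 250 bases before to 50 after an annotated start) are shown for ZEB1 and ZEB2, the factors with the lowest relative level in 1 library (AEBP1 siRNA 1), for TWIST2, the shortest of the factors, which had its own highest level there, and for TCF21, the factor with the largest difference between the labelled groups. Capitals mark CAGGTG or its reverse complement CACCTG, the E-box bound by SNAI2 and the ZEB proteins.
ZEB1, start 3 of 7, chr10:31318966-31319265, plus strand: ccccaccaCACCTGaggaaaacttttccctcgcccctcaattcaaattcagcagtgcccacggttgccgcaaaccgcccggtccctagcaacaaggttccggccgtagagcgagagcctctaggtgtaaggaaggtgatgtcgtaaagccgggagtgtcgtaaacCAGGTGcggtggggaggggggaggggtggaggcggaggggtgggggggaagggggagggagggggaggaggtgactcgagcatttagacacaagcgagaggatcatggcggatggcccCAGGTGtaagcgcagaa
ZEB2, chr2:144520070-144520369, minus strand: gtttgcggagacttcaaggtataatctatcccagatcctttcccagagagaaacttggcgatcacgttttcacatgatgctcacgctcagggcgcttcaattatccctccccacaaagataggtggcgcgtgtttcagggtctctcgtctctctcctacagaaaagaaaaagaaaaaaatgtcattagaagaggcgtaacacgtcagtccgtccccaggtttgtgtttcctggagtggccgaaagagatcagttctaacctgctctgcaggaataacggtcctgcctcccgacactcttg
TWIST2, chr2:238847835-238848134, plus strand: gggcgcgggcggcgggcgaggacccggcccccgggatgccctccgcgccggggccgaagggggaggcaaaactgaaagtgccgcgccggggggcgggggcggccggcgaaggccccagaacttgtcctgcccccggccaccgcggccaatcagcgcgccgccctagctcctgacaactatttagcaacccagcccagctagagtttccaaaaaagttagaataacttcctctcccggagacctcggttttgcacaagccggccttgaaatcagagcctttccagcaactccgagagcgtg
TCF21, chr6:133888863-133889162, plus strand: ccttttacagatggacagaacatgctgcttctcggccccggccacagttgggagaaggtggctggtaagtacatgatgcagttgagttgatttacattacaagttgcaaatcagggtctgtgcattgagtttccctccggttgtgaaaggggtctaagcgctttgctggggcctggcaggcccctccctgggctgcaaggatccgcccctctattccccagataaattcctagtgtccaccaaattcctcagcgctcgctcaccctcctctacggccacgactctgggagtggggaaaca

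The motif CAGGTG, searched on both strands, occurred 3 times in this ZEB1 window and 1 time in the window of the first ZEB1 start. It was in none of the other 5 ZEB1 windows, nor in the windows searched for HAND2, GATA6, LHX2, TCF21, TWIST2 and ZEB2. Windows of GATA4, SNAI2 and TWIST1 are not reported here. Of 35116 promoter windows of the same length, 20.6% held it. The broader E-box CANNTG, of which CAGGTG is one form, was in 68.7% of those windows, 3 times in the TCF21 window, 1 time in the ZEB2 window and 0 times in the TWIST2 window. The TWIST2 window had a G and C content of 66.7% and 29 CpG dinucleotides, where the median of all windows was 58.7% and 14. The ZEB2 window had 49.0% and 14, and that of TCF21 54.7% and 9. These are matches of letters and describe no measured binding.

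The targeted gene did not follow the labels in replicate 3. AEBP1 was at 53.6 CPM (counts relative to the scaled library size) in scrambled 1, 48.7 CPM in scrambled 2 and 25.1 CPM in scrambled 3. It was at 29.7 and 27.7 CPM in AEBP1 siRNA 1 and 2 and at 48.3 CPM in AEBP1 siRNA 3. Scrambled 3 thus had the lowest AEBP1 level of all 6, and AEBP1 siRNA 3 lay beside scrambled 2. By label, AEBP1 had a log2 fold change of -0.27 (SE 0.305, edgeR adjusted p = 0.991), and without replicate 3 of both groups -0.835 (unadjusted p = 0.00102, adjusted p = 0.378, edgeR). The libraries left out are those in which AEBP1 itself went against the labels. A larger AEBP1 difference without them follows from that choice, and its p-value is no test of the knockdown. Every direction between groups below rests on the labels, and for the factors and their shares the value without replicate 3 of both groups is given too. Total counts were 34433510 to 49432960 per library, and AEBP1 siRNA 1 was far from the rest on the first principal component, at 65.9 where the other 5 lay between -17.3 and -5.74. The second component, with 21.4% of the variance, crossed the labels as AEBP1 did. Scrambled 3 was at -26.0 beside AEBP1 siRNA 2 at -34.1, and AEBP1 siRNA 3 at 17.8 beside scrambled 1 and 2 at 29.9 and 14.3. The pairs of libraries with the smallest difference in counts over all genes were scrambled 3 with AEBP1 siRNA 2 (chi-square per degree of freedom 7.78) and scrambled 2 with AEBP1 siRNA 3 (9.16). Whether the 2 libraries of replicate 3 carry each other's label was not tested, and the labelled differences below are read with that limit.

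**Figure D1:**
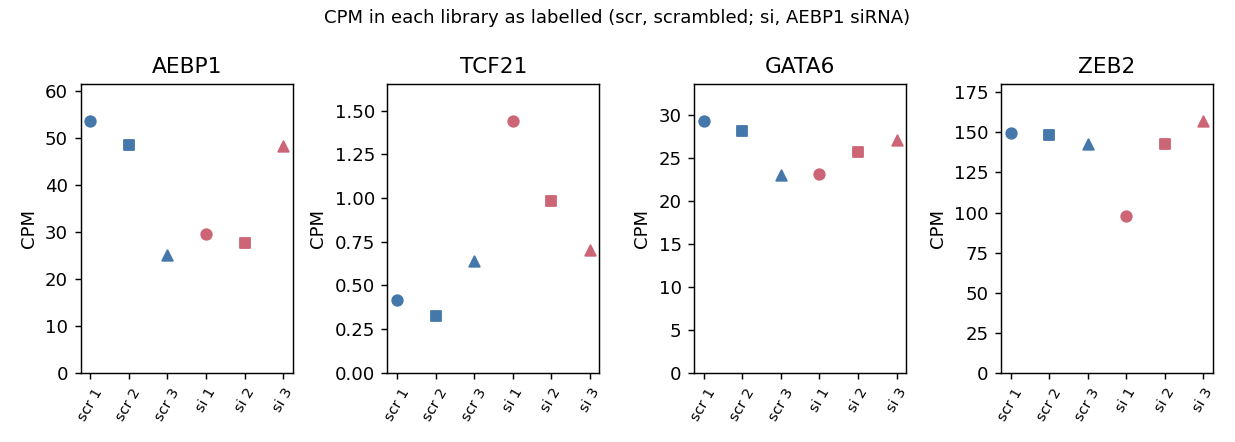
CPM (vertical axis, starting at 0) of AEBP1, TCF21, GATA6 and ZEB2 in the 6 libraries (scr, scrambled; si, AEBP1 siRNA; each point is 1 library). AEBP1 is at 25.1 CPM in scrambled 3 and 48.3 CPM in AEBP1 siRNA 3, TCF21 is highest in AEBP1 siRNA 1 at 1.44 CPM, and ZEB2 is lowest there at 97.95 CPM.

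All 10 factors were detected in every library and passed the filter on low counts. Per transcript length, ZEB2 and TWIST2 were the most abundant, at means over the 6 libraries of 23.5 and 21.0 FPKM (fragments relative to transcript length and library size, as deposited), followed by LHX2 at 17.9 FPKM and SNAI2 at 15.5 FPKM. ZEB1 was at 9.71 FPKM, GATA4 at 7.43 FPKM, GATA6 at 6.42 FPKM and TWIST1 at 2.91 FPKM. HAND2 and TCF21, which mark the mesenchyme of several organs, were nearly silent at 0.376 and 0.147 FPKM. ZEB2 had 3426 of the table's annotated genes above it and TCF21 13528.

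Most steps in this order held in each library. ZEB2 was above TWIST2 in 5 of 6 libraries, the exception being AEBP1 siRNA 1, where ZEB2 was at 13.5 FPKM and TWIST2 at 26.8 FPKM. Every other factor was above its next neighbour in 6 of 6 libraries. The ranges over libraries still overlapped between ZEB2 and TWIST2, TWIST2 and LHX2, LHX2 and SNAI2, ZEB1 and GATA4, and GATA4 and GATA6, although, ZEB2 and TWIST2 apart, their order was the same in each library. The ranges were separate between SNAI2 and ZEB1, GATA6 and TWIST1, TWIST1 and HAND2, and HAND2 and TCF21.

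**Figure D2:**
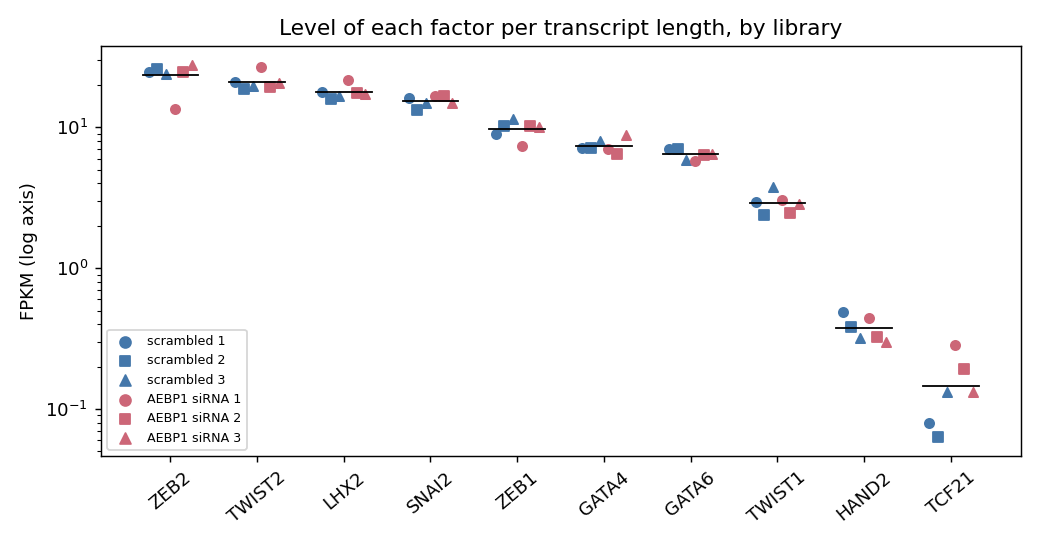
Deposited FPKM (log axis) of the 10 factors in the 6 libraries, ordered by mean; colour gives the labelled group, marker shape the replicate number and the black line the mean of 6. The means run from 23.5 FPKM for ZEB2 to 0.147 FPKM for TCF21, the labelled groups overlap in FPKM for all 10 factors, and for ZEB2 1 library at 13.5 FPKM lies far below the rest.

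None of the 10 factors was called between the labelled groups. By edgeR's quasi-likelihood test with Benjamini-Hochberg adjustment over all 16250 genes tested, their adjusted p-values were 0.991 to 0.997, and 1 gene in all was called (0.00615%). DESeq2 called 0 of the factors and 0.0277% of all genes, and limma-voom 0 and 0.0123%. With the replicate number as a block edgeR called 0 factors and 0.0123% of genes, without replicate 3 of both groups 0 and 0.00614%, and without AEBP1 siRNA 1 0 and 0.006%. At an unadjusted p under 0.05 there was 1 factor, TCF21, against 216 of all genes (1.33%). Of the 10 estimates 6 were higher in the libraries labelled AEBP1 siRNA and 4 lower, with a median log2 fold change of 0.035, beside -0.002 over all genes tested. In such bulk RNA, fewer cells that express a gene and less RNA of it per cell cannot be told apart.

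**Figure D3:**
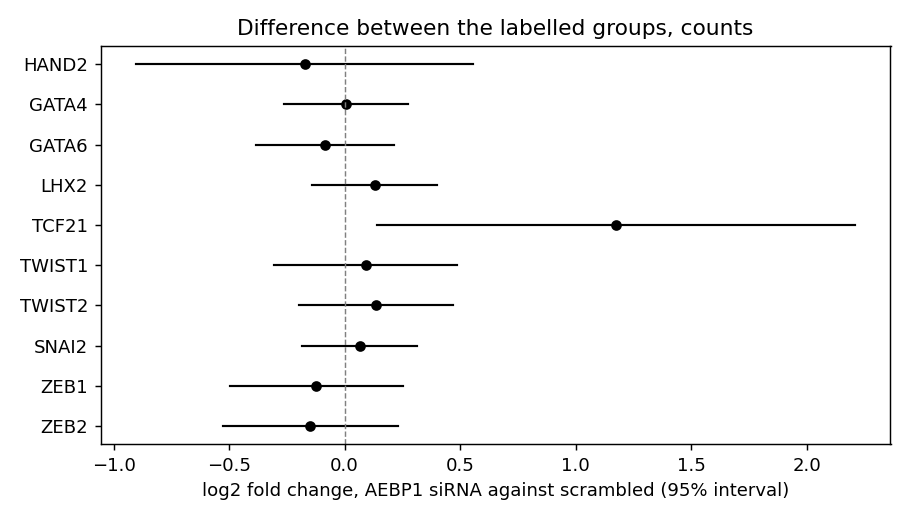
Log2 fold change of each factor, AEBP1 siRNA against scrambled as labelled, from edgeR (points, 3 libraries per group) with its 95% interval (lines). All intervals but that of TCF21, 0.14 to 2.21, include 0, and no adjusted p is below 0.991.

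Among the lineage factors, TCF21 had the largest difference and the fewest reads. TCF21 (ENSG00000118526), a factor of epicardial and visceral fibroblast precursors, had 17, 16 and 28 counts in scrambled 1, 2 and 3 and 50, 37 and 29 counts in AEBP1 siRNA 1, 2 and 3. Scaled to library size these were 0.414, 0.325 and 0.639 CPM against 1.44, 0.984 and 0.702 CPM. In CPM the groups did not overlap, as for 5.93% of all genes tested in either direction and 3.03% with AEBP1 siRNA higher. Both libraries of replicate 3 lay next to each other, and in FPKM both were at 0.132, with scrambled 3 the higher by less than the rounding, so there the groups overlapped. The log2 fold change was 1.18 (SE 0.45, n = 3 and 3, edgeR unadjusted p = 0.0304, adjusted p = 0.991), with a 95% interval of 0.14 to 2.21. Without AEBP1 siRNA 1, the highest library, it was 0.87 (unadjusted p = 0.12, edgeR; 1.42% of all genes were under 0.05), and without replicate 3 of both groups 1.71 (unadjusted p = 0.0169, adjusted p = 0.915, edgeR), where 4.7% of all genes had an unadjusted p under 0.05. With the replicate number as a block the unadjusted p was 0.0601.

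HAND2 (ENSG00000164107), a factor of heart and hepatic mesenchyme, was close to 1 CPM throughout. It was at 1.56, 1.22 and 1.00 CPM in scrambled 1, 2 and 3 and at 1.38, 1.01 and 0.969 CPM in AEBP1 siRNA 1, 2 and 3, from 38 to 64 counts per library. The groups overlapped, and within both the library of replicate 1 was highest. Its log2 fold change of -0.17 (SE 0.318) had a 95% interval of -0.90 to 0.56, and without replicate 3 of both groups it was -0.215.

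LHX2 (ENSG00000106689), the brake on activation described above, was well expressed. Its levels were 51.8, 44.5 and 47.9 CPM in the scrambled libraries and 60.2, 48.15 and 49.7 CPM in the AEBP1 siRNA libraries. AEBP1 siRNA 1 was the highest of the 6, and the other 5 lay within 44.5 to 51.8 CPM. LHX2 differed by a log2 fold change of 0.13 (SE 0.118, 95% interval -0.14 to 0.40), by 0.03 without AEBP1 siRNA 1 and by 0.17 without replicate 3 of both groups.

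GATA4 (ENSG00000136574) varied little between libraries in CPM. It was at 25.7, 24.8 and 22.1 CPM in the scrambled libraries and 25.9, 22.4 and 24.5 CPM in the AEBP1 siRNA libraries. The groups overlapped fully, and the log2 fold change was 0.005 (SE 0.117) with a 95% interval of -0.26 to 0.27. Without replicate 3 of both groups it turned to -0.06.

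GATA6 (ENSG00000141448), its close relative, was at 29.3, 28.2 and 23.0 CPM in scrambled 1, 2 and 3 and at 23.2, 25.7 and 27.1 CPM in AEBP1 siRNA 1, 2 and 3. Scrambled 3 was the lowest of all 6 and AEBP1 siRNA 3 the highest of its group. Both libraries of replicate 3 thus lay toward the other group, as for AEBP1. What share of all genes had this order is not given here. GATA6 differed by a log2 fold change of -0.08 (SE 0.13, 95% interval -0.38 to 0.22) and, without replicate 3 of both groups, -0.23 (unadjusted p = 0.169, adjusted p = 0.967, edgeR).

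Of the transition factors, ZEB2 (ENSG00000169554) was the most abundant in CPM and FPKM and was low in 1 library. It was at 149.5, 148.5 and 142.5 CPM in scrambled 1, 2 and 3 and at 97.95, 143 and 157 CPM in AEBP1 siRNA 1, 2 and 3. AEBP1 siRNA 1 lay below all others, and AEBP1 siRNA 3 was the highest of the 6. ZEB2 had a log2 fold change of -0.15 (SE 0.165, 95% interval -0.53 to 0.23), which turned to 0.03 without AEBP1 siRNA 1 and was -0.31 without replicate 3 of both groups (unadjusted p = 0.18, adjusted p = 0.967, edgeR).

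ZEB1 (ENSG00000148516), the other member of the ZEB family, was at 56.2, 67.3 and 71.1 CPM in the scrambled libraries and 45.8, 65.3 and 67.7 CPM in the AEBP1 siRNA libraries. Here too AEBP1 siRNA 1 was lowest, with scrambled 1 next. Its log2 fold change of -0.12 (SE 0.164, 95% interval -0.50 to 0.25) turned to 0.04 without AEBP1 siRNA 1 and was -0.15 without replicate 3 of both groups.

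TWIST2 (ENSG00000233608), a factor of dermal and other mesenchyme, showed the opposite order. It was at 33.3, 29.4 and 30.5 CPM in the scrambled libraries and at 41.3, 28.7 and 32.6 CPM in the AEBP1 siRNA libraries, highest in AEBP1 siRNA 1 and lowest in AEBP1 siRNA 2. TWIST2 had a log2 fold change of 0.14 (SE 0.145, 95% interval -0.20 to 0.47), -0.02 without AEBP1 siRNA 1 and 0.16 without replicate 3 of both groups. TWIST1 (ENSG00000122691), needed for cranial mesenchyme, was at 5.04, 4.35 and 4.43 CPM against 5.32, 4.23 and 5.16 CPM, with a log2 fold change of 0.09 (SE 0.172, 95% interval -0.31 to 0.49), and of 0.025 without replicate 3 of both groups.

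SNAI2 (ENSG00000019549), also called Slug, a repressor of E-cadherin, was at 37.8, 32.6 and 34.8 CPM in the scrambled libraries and 37.5, 39.2 and 33.4 CPM in the AEBP1 siRNA libraries. The groups overlapped, and AEBP1 siRNA 1 was not the outermost library for this gene. SNAI2 had a log2 fold change of 0.07 (SE 0.109) with a 95% interval of -0.19 to 0.32, and of 0.125 without replicate 3 of both groups.

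The library labelled AEBP1 siRNA 1 was the lowest or highest of the 6 for 7 of the 10 factors, lowest for ZEB1 and ZEB2 and highest for GATA4, LHX2, TCF21, TWIST1 and TWIST2. Over all genes tested it was outermost for 64.7%, lowest for 32.5% and highest for 32.2%. Its ratios to the mean of the other 5 libraries followed transcript length. The 11024 genes at or above a mean of 5 CPM with a known length were put in 4 equal length classes. In this library the median log2 ratio was 0.32 in the class with the shortest transcripts, 0.11 and -0.09 in the middle classes and -0.38 in the class with the longest. In the other 5 libraries the class medians lay between -0.14 and 0.11.

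The factors ran along the same gradient. TWIST2, with a longest coding transcript of 1404 bases, had a log2 ratio of 0.42, TWIST1 (1666 bases) 0.20, LHX2 (2554 bases) 0.31, SNAI2 (2428 bases) 0.08, HAND2 (2780 bases) 0.26 and GATA4 (3414 bases) 0.12. GATA6 (3770 bases) was at -0.20, ZEB1 (6267 bases) at -0.52 and ZEB2 (9583 bases) at -0.59. Within their own length class, 27.2% of genes had a ratio below that of ZEB2, 35.3% below ZEB1, 33.0% below GATA6, 44.5% below SNAI2, 52.1% below GATA4, 71.7% below TWIST2 and 83.6% below LHX2. The part of transcript length in the values of this library was not tested. TCF21, with 4551 bases and a mean under 1 CPM, was at 1.23, away from that gradient, on 50 counts.

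**Figure D4:**
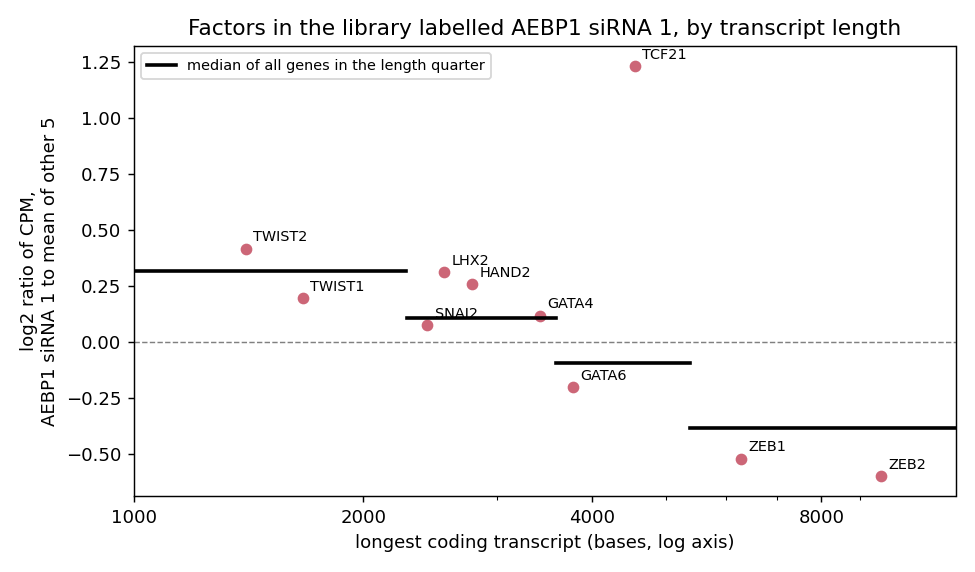
Log2 ratio of CPM in the library labelled AEBP1 siRNA 1 to the mean of the other 5 libraries (vertical axis) against the longest coding transcript of each factor (horizontal log axis, GENCODE 29). Black bars are the medians of the genes at or above a mean of 5 CPM in each length class. HAND2, TCF21 and TWIST1 lie below that mean and are in no class. TWIST2 at 0.42 and ZEB2 at -0.59 lie near the bars of their classes, 0.32 and -0.38, while TCF21 is at 1.23.

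The balance within each family was compared by label as a share of summed FPKM. ZEB1 made up 26.5%, 28.1% and 32.6% of the summed FPKM of both in scrambled 1, 2 and 3 and 35.4%, 29.2% and 26.3% in AEBP1 siRNA 1, 2 and 3. Group means were 29.1% ± 3.14 (SD, n = 3) and 30.3% ± 4.61 (SD, n = 3), an exact two-sided permutation p of 0.7. The difference was 1.24 percentage points, and 4.98 without replicate 3 of both groups, where AEBP1 siRNA 1 and 2 both lay above scrambled 1 and 2 (exact permutation p = 0.333, the smallest that 2 libraries against 2 can give). TWIST1 made up 13.2% ± 2.61 (SD, n = 3) of the summed FPKM of TWIST1 and TWIST2 in the scrambled libraries and 11.2% ± 1.04 (SD, n = 3) in the AEBP1 siRNA libraries (exact permutation p = 0.4), a difference of -1.98 percentage points and of -1.01 without replicate 3 of both groups. TWIST2 was the main TWIST transcript in all 6. GATA6 made up 47.2% ± 4.08 (SD, n = 3) of the summed FPKM of GATA4 and GATA6 against 45.6% ± 3.75 (SD, n = 3), an exact permutation p of 0.6, with a difference of -1.60 percentage points and of -2.18 without replicate 3 of both groups. With 3 libraries against 3 the smallest p is 0.1, and adjusting over the 3 shares can only raise these values. With CPM in place of FPKM the differences were 0.524 percentage points for ZEB1, -0.258 for TWIST1 and -1.45 for GATA6. Without AEBP1 siRNA 1 the difference in the ZEB1 share by FPKM turned to -1.29. The FPKM of ZEB2 in AEBP1 siRNA 1, of TWIST1 in scrambled 3 and of GATA4 in both libraries of replicate 3 rest on deviating implied lengths, given below.

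Counts and FPKM did not tell the same story for all factors. The length implied by dividing one by the other was nearly constant across libraries for HAND2, LHX2 and TWIST2, with a highest to lowest ratio of 1.03, 1.04 and 1.06. For TWIST1 it was 1179 bases in scrambled 3 and 1700 to 1822 bases elsewhere, so that scrambled 3 had the highest FPKM, 3.77, with only 194 counts. For GATA4 it was 2786 bases in scrambled 3 and 2745 in AEBP1 siRNA 3, where the other 4 libraries lay between 3440 and 3744 bases. For ZEB2 it was 7336 bases in AEBP1 siRNA 1 and 5572 to 5989 bases elsewhere. The FPKM of TWIST1 in scrambled 3 and of GATA4 in both libraries of replicate 3 thus did not track their counts. For ZEB2, CPM and FPKM were both lowest in AEBP1 siRNA 1 and highest in AEBP1 siRNA 3. Its drop in AEBP1 siRNA 1 was relatively larger in FPKM. The cause of these deviations was not tested. In GENCODE 29, 7 of the 10 factors (HAND2, GATA6, LHX2, TCF21, TWIST1, ZEB1 and ZEB2) overlap a gene on the opposite strand, and with no strand setting stated for the counting, reads of either strand cannot be told apart.

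No partner or relative of the factors was called between the labelled groups. Of 18 further transition factors, E proteins and ID proteins 17 were tested and 0 were called by edgeR, with 1 at an unadjusted p under 0.05, 9 higher and 8 lower estimates and a median log2 fold change of 0.056. The E proteins TCF12, TCF3 and TCF4, the binding partners of TWIST and HAND proteins, were at 146, 75.7 and 64.6 CPM in the scrambled libraries and 126, 81.1 and 54.3 CPM in the AEBP1 siRNA libraries. In AEBP1 siRNA 1, 2 and 3, TCF12 was at 93.9, 140 and 146 CPM and TCF4 at 35.0, 55.8 and 72.1 CPM. TCF3 was at 84.1, 84.3 and 74.8 CPM there. The lower means of TCF12 and TCF4 thus rest largely on AEBP1 siRNA 1. ID3, which sequesters E proteins, was at 33.7 and 35.0 CPM. Of 25 relatives and partners of the lineage factors 21 were tested and 0 called, with a median of 0.010. Those with the highest means were ETS1 at 390 and 377 CPM, ETS2 at 148 and 157 CPM and MEF2A at 110 and 99.7 CPM. Next was TBX18, a factor of mesenchymal progenitors, at 88.1 and 80.9 CPM. ETS1, MEF2A and TBX18 were lowest in AEBP1 siRNA 1, at 317, 83.2 and 65.0 CPM, and ETS2 was highest there at 162 CPM. Of 20 corepressors and modifiers through which ZEB and SNAI proteins act, all were tested and 0 called, with 14 lower estimates and a median of -0.053. In AEBP1 siRNA 1 the median log2 ratio of these genes to the mean of the other 5 libraries was -0.209. The same median lay between -0.039 and 0.047 in each other library. In that list CHD4, AJUBA, HDAC2 and CSNK2A1 had the highest means, between 197 and 272 CPM in either group. The smallest edgeR adjusted p was 0.991 in each of these 3 lists. Over all 16250 genes tested, 1.33% had an unadjusted p under 0.05 by edgeR, 8219 had a lower estimate and the median was -0.002.

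Among the genes on which the transition factors act, the E-cadherin gene was nearly unread and the N-cadherin gene was strong in both groups. CDH1, the E-cadherin gene, had 0 counts in each scrambled library and in AEBP1 siRNA 3, and 5 and 2 counts in AEBP1 siRNA 1 and 2. A count of 0 allows up to 3 counts, or 0.0607 to 0.0726 CPM in those 4 libraries, for counting error only. CDH2, the N-cadherin of mesenchymal cells, was at 248 CPM ± 2.27 (SD, n = 3) and 240 CPM ± 21.1 (SD, n = 3). Of 31 epithelial genes 30 were analysed, 19 had a mean under 1 CPM and 2 had no count at all. In the same list 10 genes had a mean of at least 5 CPM, and the 4 with the highest means were KRT18 at 157 and 177 CPM, OCLN at 52.9 and 48.6 CPM, KRT8 at 32.9 and 36.2 CPM and JUP, a junction protein, at 21.9 and 24.9 CPM. In AEBP1 siRNA 1, 2 and 3, KRT18 was at 220, 158 and 152 CPM and OCLN at 42.5, 50.9 and 52.4 CPM. KRT8 was at 37.5, 35.6 and 35.6 CPM there and JUP at 27.5, 23.7 and 23.6 CPM. Of the 14 epithelial genes tested 0 were called by edgeR, and the median log2 fold change was 0.096. Of 15 mesenchymal genes 13 were tested and 0 called, with 10 lower estimates and a median of -0.048. Over all 16250 genes tested 8219 estimates were lower. In AEBP1 siRNA 1, 2 and 3 the median log2 ratio of the mesenchymal genes to the mean of the other 5 libraries was -0.07, -0.034 and 0.092. Among them VIM, the intermediate filament of mesenchymal cells, was at 1131 and 1204 CPM, ACTN1 at 610 and 602 CPM and FN1 at 2528 and 2003 CPM. By library FN1 was at 1290, 1980 and 2739 CPM in AEBP1 siRNA 1, 2 and 3 and at 2363 to 2774 CPM in the scrambled libraries.

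The stellate label was only partly borne out by markers. COL1A1, CSPG4 and ALCAM were at 1543, 339 and 71.8 CPM in the scrambled libraries and 1482, 316 and 65.4 CPM in the AEBP1 siRNA libraries, and PDGFRB was at 28.9 to 36.9 CPM over all 6. LRAT, the enzyme that esterifies retinol for storage, had no count in any library, and DES, the intermediate filament desmin, was at or under 0.183 CPM, so these defining markers of stellate cells were at or near 0. Of 22 stellate markers 13 had a mean under 1 CPM, and of the 14 tested 0 were called by edgeR. Markers of other liver cells were low in both groups. The summed level of 12 hepatocyte markers was 9.04 to 12.7 CPM in the scrambled libraries and 10.4 to 13.3 CPM in the AEBP1 siRNA libraries, mostly SERPINA1 and ASGR1, with ALB at or under 0.0969 CPM. For 9 cholangiocyte and epithelial markers it was 12.1 to 21.1 and 14.2 to 19.2 CPM, mostly KRT7, for 9 endothelial markers 20.5 to 25.6 and 21.1 to 21.6 CPM, mostly TIE1, and for 9 leukocyte markers 19.2 to 24.5 and 22.2 to 25.9 CPM, mostly CD68. EPCAM was at or under 0.121 CPM, PECAM1 at or under 0.268 CPM and PTPRC at or under 0.146 CPM. EdgeR called 0 of the markers of other cells that were tested.

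The profiles most like those of ZEB2 and ZEB1 were described by Pearson's r of log2 CPM over the 6 libraries, which share depth and the outlying AEBP1 siRNA 1. For ZEB2 the nearest of 11066 genes were FBXW2 (r = 0.998), RAB3GAP2 (0.996) and ZC3H12B (0.996). For ZEB1 they were GAB1 (0.999), RPGRIP1L (0.997) and C13orf46 (0.996). As many as 559 and 542 genes had an r of at least 0.95 with ZEB2 and ZEB1, so these names stand for a pattern shared by many genes.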

How the data were processed

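RNA sequencing data of 6 LX-2 libraries were used. The authors deposited 1 table that holds both raw counts and FPKM for each gene and library (per the file headers). Per the submitters' processing notes the build was hg19. For the aligner, counter, annotation, strand setting and filters, details were not given in the sources used here. Of its lines 24789 held values and 17 did not. Gene symbols turned into dates by a spreadsheet, 27 in number, were restored by gene ID.

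Counts of all genes were filtered with filterByExpr, scaled by trimmed mean of M values and compared between the labelled groups (3 and 3) with edgeR 4.0.16 (quasi-likelihood test, R 4.3.3), group being the only term. Genes with a Benjamini-Hochberg adjusted p under 0.05 over 16250 genes were called. Standard errors are the log2 fold change divided by the root of F. Shares were compared with exact permutation tests. Principal components used log2 CPM. Lengths are those of the longest coding transcript in GENCODE 29, matched by gene ID for 95.1% of genes at or above a mean of 5 CPM. Promoters were matched by symbol, and windows of 7 of the factors are reported. Those of GATA4, SNAI2 and TWIST1 are not reported here, which does not mean that no window exists for them. Alternatives were a replicate block, left-out libraries, other scalings and filters, DESeq2 1.42.0, and limma 3.58.1 with voom or on log2(FPKM + 1) and log2(FPKM + 0.1).

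The factors, the 12 gene lists and the tests were chosen with earlier results of these data known. Named were all factors, AEBP1, the 4 genes of highest mean CPM in each list, CDH1, CDH2 and VIM, and the 3 genes most like ZEB2 and ZEB1. Some genes that this rule names are not reported here. Any further gene was picked with its values in view. Antisense genes and MIR200CHG were listed but not analysed here. The counts of each pair of libraries differed beyond sampling noise (a chi-square of 7.78 or more for each degree of freedom), so all 6 were kept as separate. The test was checked on simulated counts of 16250 genes for this comparison. Among genes at or above 5 CPM it found 19.4% of 67 planted 1.5-fold changes, 85.1% of 67 at 2-fold and 98.5% of 66 at 4-fold. TCF21, HAND2 and TWIST1 lie below that mean. The simulated counts followed the labels and held no outlying library. In the deposited counts AEBP1 crossed the labels in replicate 3 and AEBP1 siRNA 1 lay apart, so these shares need not hold for them.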

Additional observations from a re-analysis of the deposited data

How the results depend on the processing

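No factor was called under any alternative run. Against 1 gene called over all genes, DESeq2 gave 6, limma on log2(FPKM + 0.1) and no filter 3 each, limma-voom 2 and the replicate block 2, and leaving out single libraries gave 0 to 2. The replicate numbers showed no pairing: deviations from group means correlated at 0.0961, -0.00776 and -0.102, and the block called 0 factors. The estimate of GATA4, near 0, changed sign on log2(FPKM + 0.1) (-0.00335), on log2(FPKM + 1) (-0.00204) and without replicate 3 of both groups (-0.063), and that of TWIST1 on the same FPKM scales (-0.097 and -0.078). Without single libraries, log2 fold changes ran from -0.056 to 0.06 for GATA4, -0.347 to 0.0078 for HAND2, -0.02 to 0.249 for TWIST2, -0.224 to 0.035 for ZEB1 and -0.288 to 0.028 for ZEB2, while TCF21 kept its sign at 0.873 to 1.49. The difference in the ZEB1 share ran from -1.29 to 3.23 percentage points and that in the GATA6 share from -3.95 to 0.173. A mean of at least 5 CPM removed HAND2, TCF21 and TWIST1 from the test. For these changes of sign the cause was not tested. In the single-gene results, 145 values stayed and 12 reversed. The few reads of TCF21 (16 to 50) and HAND2 (38 to 64) limit what could be seen for them.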

Other observations

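Some genes of the corepressor and stellate lists crossed the labels in replicate 3 as AEBP1 did. They were chosen for this order after seeing these values, and no share of all genes with the same order is given here. HDAC1, a histone deacetylase recruited by SNAI proteins, had 100.4 CPM in scrambled 1, 97.3 CPM in scrambled 2 and 152 CPM in scrambled 3, as labelled. It was at 176 and 154 CPM in AEBP1 siRNA 1 and 2 and at 101 CPM in AEBP1 siRNA 3. MTA2, a subunit of the NuRD repressor complex, had the mirror order, with 227, 211 and 135 CPM in scrambled 1, 2 and 3 and 150, 132 and 212 CPM in AEBP1 siRNA 1, 2 and 3. NGFR, a neurotrophin receptor of stellate cells, was at 23.1, 23.7 and 33.0 CPM in scrambled 1, 2 and 3 and at 36.5, 29.8 and 22.4 CPM in AEBP1 siRNA 1, 2 and 3. By labelled group the edgeR adjusted p of each of these 3 genes was 0.991.

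GSC, a homeobox factor of the transition list, was the one member of that list with an unadjusted p under 0.05 by edgeR. Over all genes tested 1.33% were under 0.05. GSC was at 0.414, 0.366 and 0.251 CPM in scrambled 1, 2 and 3 and at 0.719, 0.558 and 0.848 CPM in AEBP1 siRNA 1, 2 and 3. In CPM the groups did not overlap, as for 5.93% of all genes tested in either direction and 3.03% with AEBP1 siRNA higher. The GSC values rest on 11 to 35 counts per library. The difference was 1.04 on the log2 scale (SE 0.431), with an adjusted p of 0.991 by edgeR.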
